A study of Mus musculus with 15 samples.

Results

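Fat cells arise from mesenchymal progenitors that are recognised by a small panel of genes, and 10 of these genes were followed through the differentiation of 3T3-L1 cells: Pdgfra, Pdgfrb, Ly6a, Cd34, Thy1, Prrx1, Zfp423, Ebf2, Dpp4 and Cd24a. They were found by symbol among the 25700 genes of the count tables, and all 10 were present. In adipose tissue, progenitors lie in the stroma and along vessels and carry the receptors for platelet-derived growth factor (PDGF) together with the surface proteins SCA-1 (encoded by Ly6a), CD34 and THY1. DPP4 marks early interstitial progenitors, CD24 marks progenitors ahead of those that have lost it, and Prrx1, Zfp423 and Ebf2 encode factors that act in the nucleus. PRRX1 is a factor of the mesenchyme, while ZFP423 and EBF2 act in cells that are set for the adipocyte fate. Receptors and stromal surface proteins of this panel are typically lost as a cell fills with lipid, while ZFP423 and EBF2 are known to work with the adipogenic regulator PPARG.

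The 3T3-L1 line is a mouse fibroblast-like preadipocyte line, and its RNA was sequenced in 5 groups of 3 libraries. Wild-type (WT) cells and cells described as depleted of MIGA2 (MIGA2-KO) were taken at day 0 and day 6, and cells overexpressing MIGA2-GFP were taken at day 6. MIGA2, mitoguardin 2, sits in the outer mitochondrial membrane, and GFP is green fluorescent protein. All groups were held confluent for 48 h before day 0. Cells harvested at day 6 had been given insulin (1 µg/mL) until day 4 and, over the first 2 days, also IBMX at 0.5 mM with dexamethasone at 1 µM. The labels name neither the means of depleting MIGA2 nor the promoter of MIGA2-GFP, and do not say whether a line is 1 clone. MIGA2-GFP cells at day 0 were not analysed here. The comparisons ask how the panel moves over differentiation and whether the lines with altered MIGA2 depart from WT.

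Library totals ran from 10748668 to 26003871 counts, and WT day 0 was sequenced deepest. Miga2 mRNA lay between 13.6 and 17.8 CPM (counts scaled to TMM-adjusted library totals) in WT at day 0 and between 17.2 and 22.5 in MIGA2-KO at day 0. At day 6 it lay between 145 and 182 in WT and between 155 and 166 in MIGA2-GFP, so the line described as overexpressing overlapped WT. Replicates 2 and 3 labelled MIGA2-KO day 6 had 74.5 and 70.0 CPM, while the library labelled MIGA2-KO day 6 replicate 1 had 926 CPM. That is above every other library, though the label names depletion of MIGA2. Whether the depletion should lower the mRNA is not in the labels. Against WT, Miga2 did not pass in MIGA2-KO at day 0 (adjusted p = 0.708, edgeR) or day 6 (0.157) or in MIGA2-GFP (0.985). The groups are therefore named by their labels, which these counts do not check. Replicate 1 of WT day 0, replicate 1 of WT day 6 and the library labelled MIGA2-KO day 6 replicate 1 each stood apart from the other libraries of its group. Calls on the markers that change without these 3 libraries are also given without them. Such fits keep only 2 libraries in each of these 3 groups. The 3 were singled out by their distance in these same data, so p-values without them are not independent support. All 7 fibroblast markers were detected in every group. Their summed level was 36881 to 48227 CPM in WT and 37348 to 39699 CPM in MIGA2-KO at day 0, and 11480 to 11904 CPM in WT, 22164 to 33783 CPM in MIGA2-KO and 13210 to 13652 CPM in MIGA2-GFP at day 6. The summed level of 7 adipocyte markers was at most 56.2 CPM at day 0, and at day 6 it was 25355 to 33415 CPM in WT, 5117 to 7674 CPM in MIGA2-KO and 14599 to 15678 CPM in MIGA2-GFP. The part of these sums in the results on the panel was not tested. In bulk RNA, fewer cells of a type and less RNA per cell cannot be told apart.

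The genes lie on 9 chromosomes of GRCm38 and are protein coding in GENCODE vM21. Pdgfra (ENSMUSG00000029231) lies at chr5:75152292-75198215 on the forward strand, and Pdgfrb (ENSMUSG00000024620) at chr18:61045150-61085061, forward. They encode the receptor tyrosine kinases for PDGF. Ly6a (ENSMUSG00000075602, chr15:74994877-74998031, reverse), Thy1 (ENSMUSG00000032011, chr9:44043384-44048579, forward) and Cd24a (ENSMUSG00000047139, chr10:43578284-43584265, forward) encode surface proteins held by a lipid anchor. Cd34 (ENSMUSG00000016494, chr1:194938819-194961279, forward) encodes a sialomucin, and Dpp4 (ENSMUSG00000035000, chr2:62330073-62412231, reverse) a membrane-bound dipeptidyl peptidase. Prrx1 (ENSMUSG00000026586, chr1:163245119-163313710, reverse) encodes a homeobox factor of limb and body-wall mesenchyme. Zfp423 (ENSMUSG00000045333, chr8:87661810-87959595, reverse) encodes a zinc finger factor of preadipocyte commitment, and Ebf2 (ENSMUSG00000022053, chr14:67233292-67430918, forward) a factor of brown and beige precursors.

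Reads of some of these genes could be shared. Of the 50-base words in Ly6a transcripts 19% also occurred in transcripts of other genes, 195 of them in its paralogue Ly6c1. How far this moved the Ly6a count is not known, as the handling of reads with several matches is unstated. The share was 4.93% for Pdgfra and 4.82% for Ebf2, mostly in antisense transcripts, 2.92% for Dpp4, 2.75% for Cd24a, 2.14% for Cd34 and 0.171% for Prrx1. No such word was shared for Pdgfrb, Thy1 or Zfp423. No source used here states whether the counting used strand.

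RefSeq promoter windows of 300 bases on GRCm38.p6, which run from 250 bases before a start site to 50 after it, were found for 5 of the 10 genes. The 250 bases before the start are printed for Pdgfra and Prrx1, the pair with the most similar profile in the panel, for Zfp423, which was lower in MIGA2-KO than in WT at day 6 where they were higher, and for Dpp4, which had no count. Pdgfra is chr5:75152001-75152250 on the forward strand, and the others are chr1:163313651-163313900, chr8:87959596-87959845 and chr2:62412232-62412481, all reverse. Each runs 5′ to 3′, and capitals mark a match to a searched motif.
Pdgfra: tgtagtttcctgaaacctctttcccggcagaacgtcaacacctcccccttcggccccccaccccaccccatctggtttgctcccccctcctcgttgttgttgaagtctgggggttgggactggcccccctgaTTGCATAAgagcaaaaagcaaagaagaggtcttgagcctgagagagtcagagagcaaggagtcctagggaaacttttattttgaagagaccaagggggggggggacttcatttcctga
Prrx1: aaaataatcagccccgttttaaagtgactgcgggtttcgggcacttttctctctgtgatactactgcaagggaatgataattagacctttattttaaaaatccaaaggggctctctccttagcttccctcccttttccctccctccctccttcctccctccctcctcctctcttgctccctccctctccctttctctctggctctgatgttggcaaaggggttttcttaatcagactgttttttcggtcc
Zfp423: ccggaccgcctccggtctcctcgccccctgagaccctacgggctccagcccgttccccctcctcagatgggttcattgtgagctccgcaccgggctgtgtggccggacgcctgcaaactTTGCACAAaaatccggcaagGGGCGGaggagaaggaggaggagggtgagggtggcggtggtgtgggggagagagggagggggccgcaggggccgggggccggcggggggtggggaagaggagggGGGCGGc
Dpp4: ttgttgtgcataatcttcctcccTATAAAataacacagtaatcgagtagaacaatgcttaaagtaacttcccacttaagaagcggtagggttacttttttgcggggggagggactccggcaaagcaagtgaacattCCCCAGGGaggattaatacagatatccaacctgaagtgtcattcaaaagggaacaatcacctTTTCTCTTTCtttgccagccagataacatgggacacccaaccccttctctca
Both strands of the 300 bases were searched for 7 motifs. The TATA box, searched as TATAAA, was found in 13.6% of all 32851 windows. The CCAAT box was in 37.4%, and the GC box (GGGCGG) was in 35.7%. A core bound by EBF factors, with the letters CCCNNGGG, was in 13.7% of windows, and the GAS element of STAT factors, TTCNNNGAA, in 8.3%. The core of the interferon response element ISRE was in 3.44%, and a core bound by C/EBP factors, TTGCNNAA, in 10.8%. Pdgfra held the C/EBP core beginning 118 bases before the start and again 12 bases after it. In Prrx1 none of the 7 motifs was found, so the pair with the most similar profile shared none of them. Zfp423 had 2 windows. The printed one held the C/EBP core 131 bases before and 22 bases after the start, and the GC box 111 and 7 bases before it. The other, at chr8:87804390-87804689 on the reverse strand, held the GC box 62 and the EBF core 28 bases before its start, and no C/EBP core. In Dpp4 the TATA box lay 227, the EBF core 114 and the ISRE core 52 bases before the start. GC content was 51% in the Pdgfra window, 47.7% in Prrx1, 65.7% in the printed Zfp423 window and 45.3% in Dpp4, against a median of 52.7% over all windows. A match is a match of letters and was not tied to binding.

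The 5 genes of the panel that changed in WT cells were all lower at day 6, and MIGA2-KO cells had genes that changed in both directions. Dpp4 had no count in any library, and the other 9 genes passed the filter on low counts and were tested with 12279 genes in all. Cd34 passed it narrowly and had 209 counts over the 15 libraries. In WT cells, day 6 against day 0, 5 of the 9 were lower and 0 higher (edgeR quasi-likelihood test, adjusted p under 0.05), with 33.1% of all tested genes lower, 31.7% higher and 64.8% called. In MIGA2-KO cells over the same days 4 were lower and 3 higher, with 21.0% of all tested genes lower, 23.3% higher and 44.3% called. The change over time differed between the lines for 6 of the 9, with 27.2% of all tested genes called. That difference, MIGA2-KO minus WT, was positive for 5 genes and negative for 1, against 13.7% and 13.6% of all genes. Whether replicates came from separate cultures is not in the labels, and the p-values reflect no more than the spread among these libraries, which may be technical.

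Between lines at the same day, MIGA2-KO at day 0 had 1 of 9 genes higher and 3 lower than WT, with 33.9% of all tested genes called. At day 6, 4 were higher and 2 lower in MIGA2-KO than in WT, with 29.2% of all genes higher and 60.7% called, so the count of 6 lay near the background. MIGA2-GFP had 2 higher and 3 lower than WT at day 6, with 35.3% of all genes called. Against MIGA2-KO at day 6, MIGA2-GFP had 8 lower and 1 higher, with 47.9% of all genes called, 22.5% lower and 25.4% higher. The median log2 fold change of the 9 genes was -0.97 in WT and -0.36 in MIGA2-KO over time, 0.89 for MIGA2-KO against WT at day 6, -0.05 for MIGA2-GFP against WT and -1.04 for MIGA2-GFP against MIGA2-KO. The medians of all tested genes in these comparisons lay between -0.04 and 0.02. These comparisons share libraries, so their counts are not independent of each other.

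**Figure D1:**
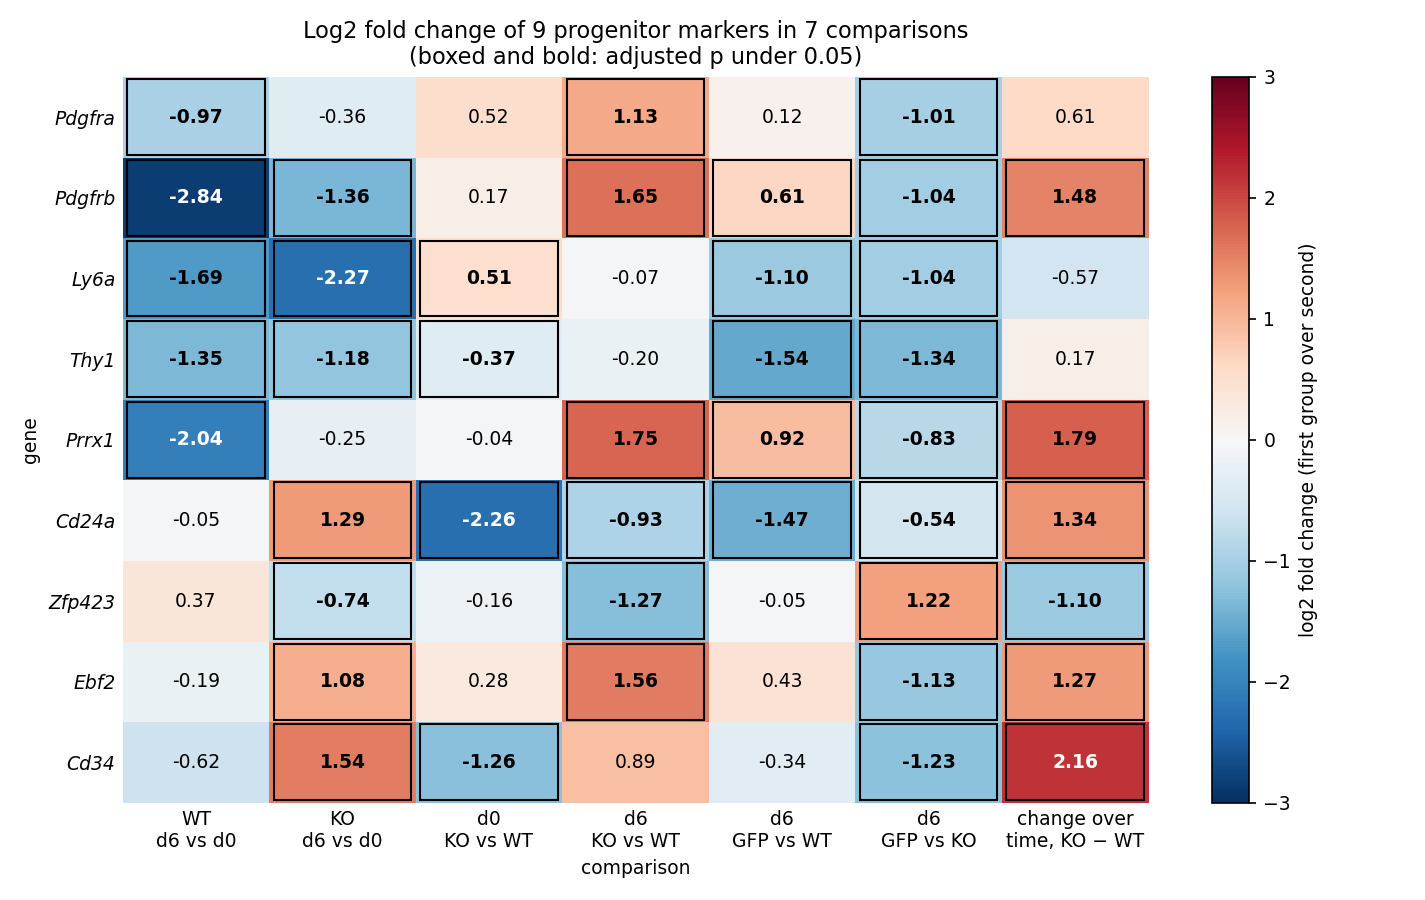
Log2 fold change of each tested gene (rows) in the 7 comparisons (columns), where red is higher and blue lower in the first group named; boxed values passed an adjusted p of 0.05 in edgeR. The WT time course holds 5 boxed values, all negative, and the comparison of MIGA2-GFP with MIGA2-KO holds 9, of which 8 are negative.

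Level per length set the genes in a similar order in each group. Ly6a was highest in all 5 groups, at 213 ± 54.8 CPM per kb of exon in WT day 0 (mean ± SD, n = 3), 65.9 ± 9.37 in WT day 6, 303 ± 1.30 in MIGA2-KO day 0, 63.0 ± 8.59 in MIGA2-KO day 6 and 30.7 ± 2.09 in MIGA2-GFP. Thy1, Pdgfrb, Pdgfra and Prrx1 took the next ranks in every group. In WT day 0 they stood at 104, 103, 33.5 and 39.7 CPM per kb, and the ranges of Thy1 and Pdgfrb overlapped, as did those of Prrx1 and Pdgfra. Cd24a, Zfp423 and Ebf2 came below, at 6.70, 1.81 and 0.689 CPM per kb in WT day 0, and Cd34 was the lowest gene with counts, at 0.168. Pdgfrb ranked above Thy1 in MIGA2-KO at both days and in MIGA2-GFP, and below it in WT. Zfp423 was above Ebf2 in 4 groups and below it in MIGA2-KO day 6, at 0.973 ± 0.164 against 1.78 ± 0.385 CPM per kb, with ranges that did not overlap. Neighbours in the order whose ranges overlapped were Pdgfra and Pdgfrb in WT day 6, Pdgfra with Thy1 and Thy1 with Prrx1 in MIGA2-KO day 6, and Pdgfra with Prrx1 and Cd24a with Zfp423 in MIGA2-GFP.

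**Figure D2:**
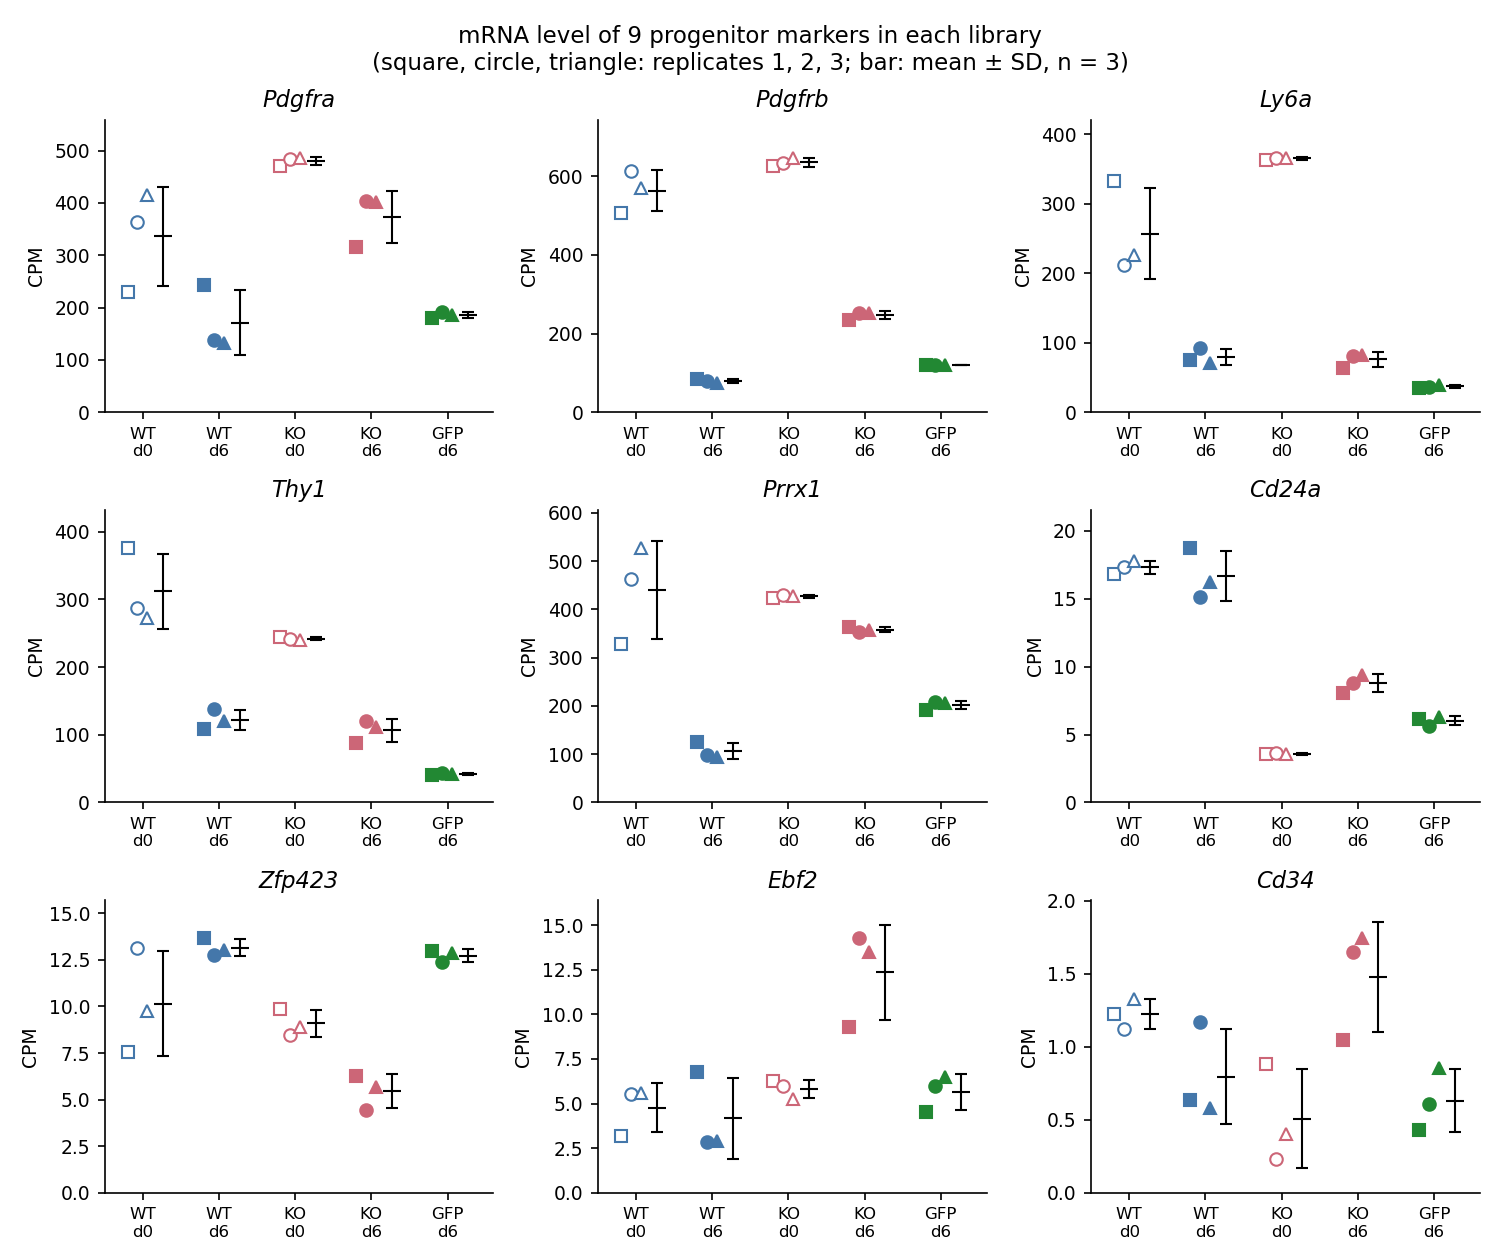
CPM of the 9 genes with counts in each of the 15 libraries (open symbols, day 0; filled, day 6; blue WT, red MIGA2-KO, green MIGA2-GFP), with the mean ± SD of 3 libraries beside them. Pdgfrb and Prrx1 are lowest in WT day 6, Ly6a and Thy1 are lowest in MIGA2-GFP, and the 3 Cd24a values of MIGA2-KO day 0, 3.53 to 3.67 CPM, lie under all others.

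The receptors for PDGF fell in WT cells, and Pdgfrb fell less in MIGA2-KO cells. Pdgfrb, the receptor that answers chiefly to PDGF-BB and marks pericytes as well as stromal progenitors, stood at 508, 612 and 570.3 CPM in WT day 0 and at 84.1, 78.4 and 73.5 in WT day 6. In MIGA2-KO it stood at 625, 634 and 647 CPM at day 0 and at 235, 253 and 253 at day 6, and in MIGA2-GFP at 121, 119 and 121. The 3 sets of day 6 libraries did not overlap: WT was lowest, MIGA2-GFP next and MIGA2-KO highest. The fall was 7.16-fold in WT (log2 fold change -2.84 ± 0.096 SE, adjusted p = 5.25e-12, edgeR) and 2.57-fold in MIGA2-KO (-1.36 ± 0.090, adjusted p = 1.67e-08). The difference between these changes was 1.48 ± 0.13 on the log2 scale (adjusted p = 1.88e-06). At day 6 Pdgfrb was 3.14-fold higher in MIGA2-KO than in WT (log2 fold change 1.65 ± 0.092, adjusted p = 9.03e-09) and 1.53-fold higher in MIGA2-GFP than in WT (0.61 ± 0.091, adjusted p = 0.000234). It was lower in MIGA2-GFP than in MIGA2-KO (log2 fold change -1.04 ± 0.090, adjusted p = 1.07e-06). At day 0 the log2 fold change between the lines was 0.17, with a 95% interval of -0.02 to 0.36, and it did not pass.

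Pericytes and smooth muscle cells also carry Pdgfrb, and 8 mural cell markers were summed beside it. The sums were 350.2 to 490.3 CPM in WT and 251 to 253 CPM in MIGA2-KO at day 0, and 278 to 325 CPM in WT, 38.8 to 154 CPM in MIGA2-KO and 312 to 319 CPM in MIGA2-GFP at day 6. Between 5 and 7 of the 8 had counts in a group, and Kcnj8, a channel gene of pericytes, was at 0 in every group. Their part in the Pdgfrb result was not tested.

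Pdgfra, the broader receptor and the usual marker of fibro-adipogenic progenitors, had more spread within groups. Its level was 230.2, 363 and 415 CPM in WT day 0 and 243, 139 and 132 in WT day 6, so replicate 1 at day 6 was above replicate 1 at day 0. Elsewhere it was 471, 484 and 486 CPM in MIGA2-KO day 0, 316, 403 and 402 in MIGA2-KO day 6, and 181, 191 and 185 in MIGA2-GFP. In WT it fell with a log2 fold change of -0.97 ± 0.22 (adjusted p = 0.00149, edgeR). Without the 3 libraries that stood apart the change was -1.51 (adjusted p = 1.79e-13), and the remaining WT libraries did not overlap. In MIGA2-KO the log2 fold change over time was -0.36 ± 0.22 (adjusted p = 0.205), with a 95% interval of -0.84 to 0.11. It passed when only the 2 groups were fitted (adjusted p = 0.0103) and without the 3 libraries (-0.23, adjusted p = 0.00271), and these groups did not overlap. At day 6 Pdgfra was 2.18-fold higher in MIGA2-KO than in WT (log2 fold change 1.13 ± 0.22, adjusted p = 0.00065) and 2.01-fold lower in MIGA2-GFP than in MIGA2-KO (-1.01 ± 0.22, adjusted p = 0.00203). Pdgfra in MIGA2-GFP against WT gave 0.12 ± 0.22 (adjusted p = 0.704), or 0.45 (adjusted p = 5.15e-06) without the 3 libraries. At day 0 the difference between MIGA2-KO and WT was 0.52 ± 0.22 (adjusted p = 0.0858), and the change over time differed by 0.61 ± 0.31 between the lines (adjusted p = 0.163). Without the 3 libraries, which left 2 in each WT group, both passed, at 0.31 (adjusted p = 0.000249) and 1.28 (adjusted p = 6.18e-10). Leaving out only replicate 1 of WT day 0 or only replicate 1 of WT day 6 also let the difference over time pass, at 0.82 and 0.95.

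The genes for 3 PDGF ligands fell in both lines. Pdgfc, whose product binds chiefly PDGFRA, went from 62.8 ± 7.76 to 22.2 ± 4.57 CPM in WT (log2 fold change -1.50 ± 0.15, adjusted p = 4.73e-07, edgeR) and from 73.9 ± 4.48 to 48.5 ± 4.88 CPM in MIGA2-KO (-0.61 ± 0.14, adjusted p = 0.00301). At day 6 Pdgfc, like its receptor gene, was higher in MIGA2-KO than in WT (log2 fold change 1.13 ± 0.15, adjusted p = 2.11e-05). Pdgfa went from 39.7 ± 15.1 to 24.5 ± 6.32 CPM in WT (-0.70 ± 0.22, adjusted p = 0.013) and from 35.3 ± 2.26 to 21.6 ± 1.31 CPM in MIGA2-KO (-0.70 ± 0.23, adjusted p = 0.0198). Pdgfb, for the chain of PDGF-BB, fell in both lines, from 300 counts to 2 over the 3 WT libraries and from 427 to 15 in MIGA2-KO. Pdgfb was also higher at day 0 in MIGA2-KO (11.3 ± 0.478 CPM) than in WT (4.16 ± 1.71 CPM), by 1.45 ± 0.32 on the log2 scale (adjusted p = 0.00356). Pdgfd had 8 counts over all 15 libraries and was not tested. Thus 3 of 3 tested ligand genes were lower over time in either line, with 33.1% of all tested genes lower in WT and 21.0% in MIGA2-KO.

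Among the surface markers, Ly6a and Thy1 fell in both lines and were lowest in MIGA2-GFP. Ly6a encodes SCA-1, the marker by which stem and progenitor cells of many mouse tissues are sorted. It stood at 333, 212 and 227 CPM in WT day 0, 74.9, 92.3 and 71.1 in WT day 6, 363, 366 and 366 in MIGA2-KO day 0, 64.0, 80.7 and 82.9 in MIGA2-KO day 6, and 34.9, 36.3 and 39.8 in MIGA2-GFP. No day 6 library reached a day 0 library of its line, and no MIGA2-GFP library reached another group. It fell 3.23-fold in WT (log2 fold change -1.69 ± 0.16, adjusted p = 3.61e-07, edgeR) and 4.81-fold in MIGA2-KO (-2.27 ± 0.17, adjusted p = 4.53e-08). These changes differed by -0.57 ± 0.22 (adjusted p = 0.0713), and by -0.72 (adjusted p = 5.22e-05) without the 3 libraries that stood apart. Leaving out replicate 1 of WT day 0 alone gave -0.80 (adjusted p = 0.002). At day 6 Ly6a was 2.15-fold lower in MIGA2-GFP than in WT (log2 fold change -1.10 ± 0.16, adjusted p = 0.000241) and 2.05-fold lower than in MIGA2-KO (-1.04 ± 0.16, adjusted p = 0.000154). MIGA2-KO and WT overlapped at day 6, with a log2 fold change of -0.07 and a 95% interval of -0.41 to 0.28.

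At day 0 Ly6a was higher in MIGA2-KO than in WT, with a log2 fold change of 0.51 ± 0.16 (adjusted p = 0.0234, edgeR). The call was lost without any 1 of 5 libraries, which were the 3 of MIGA2-KO day 0 and WT day 0 replicates 2 and 3, with adjusted p between 0.0566 and 0.0929. Without the 3 libraries that stood apart it was 0.74 (adjusted p = 4.14e-07). Ly6a is known to respond to interferon, and 10 of 10 interferon response genes were higher in MIGA2-KO than in WT at day 0, where 16.1% of all tested genes were. Their median log2 fold change there was 1.02, and Stat2, a transducer of interferon signals, stood at 237 ± 0.962 against 91.9 ± 10.8 CPM. Over time 9 of the 10 fell and 1 rose in WT, and 10 of 10 fell in MIGA2-KO, with 33.1% and 21.0% of all genes lower. At day 6, 3 of the 10 were higher and 1 lower in MIGA2-GFP than in WT, beside 16.5% and 18.9% of all genes. Against MIGA2-KO, MIGA2-GFP had 1 higher and 5 lower, beside 25.4% and 22.5%. MIGA2-KO had 4 higher and 2 lower than WT, beside 29.2% and 31.5%. The medians were 0.15, -0.17 and 0.19 in this order, where Ly6a gave -1.10, -1.04 and -0.07. The part of the interferon response in the Ly6a values was not tested. The gene with the most similar profile to Ly6a over the 15 libraries was Ifitm3, itself an interferon-induced membrane protein gene, with a root mean square difference of 0.289 between centred log2 profiles. Of the Ly6 family 3 genes beside Ly6a were tested. Ly6c1, which shares words with Ly6a, fell from 42.5 to 32.2 CPM in WT (log2 fold change -0.40 ± 0.15, adjusted p = 0.0298) and from 58.7 to 42.2 CPM in MIGA2-KO (-0.48 ± 0.15, adjusted p = 0.0171). Ly6e stood at 167 ± 43.9 CPM in WT and 367 ± 2.73 CPM in MIGA2-KO at day 0 (log2 fold change 1.13 ± 0.17, adjusted p = 0.000291). Ly6h had 13 counts in WT and 0 in MIGA2-KO at day 0, and 163 and 91 at day 6.

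Thy1, whose product CD90 marks fibroblasts and mesenchymal stromal cells, had 376, 287 and 273 CPM in WT day 0 and 109, 138 and 119.8 in WT day 6. It had 244, 242 and 239.6 CPM in MIGA2-KO day 0, 88.1, 120.4 and 111 in MIGA2-KO day 6, and 41.2, 43.0 and 42.2 in MIGA2-GFP. Day 6 libraries lay under all day 0 libraries, and those of MIGA2-GFP lay under all others. The fall was 2.55-fold in WT (log2 fold change -1.35 ± 0.14, adjusted p = 6.66e-07, edgeR) and 2.27-fold in MIGA2-KO (-1.18 ± 0.14, adjusted p = 5.8e-06). The difference between the lines in that change was 0.17, with a 95% interval of -0.24 to 0.58. Thy1 was 2.90-fold lower in MIGA2-GFP than in WT at day 6 (log2 fold change -1.54 ± 0.14, adjusted p = 5.92e-06), a larger change than that of 96.2% of all tested genes, and 2.53-fold lower than in MIGA2-KO (-1.34 ± 0.14, adjusted p = 4.86e-06). MIGA2-KO against WT at day 6 gave -0.20 ± 0.14 (adjusted p = 0.216). At day 0 it gave -0.37 ± 0.13 (adjusted p = 0.0475), a call that DESeq2 did not make (adjusted p = 0.0538) and that ended without WT day 0 replicate 1 (-0.21, adjusted p = 0.209) or without any 1 library of MIGA2-KO day 0. Thy1 and Ly6a were the second most similar pair of the panel, with a root mean square difference of 0.430 between centred profiles.

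Cd24a separated the lines from the start. It encodes CD24, a small mucin-like protein that is lost as progenitors commit in adipose tissue. Cd24a stood at 16.8, 17.3 and 17.7 CPM in WT day 0 and at 18.7, 15.1 and 16.2 in WT day 6. MIGA2-KO had 3.53, 3.67 and 3.57 CPM at day 0 and 8.09, 8.82 and 9.41 at day 6, and MIGA2-GFP had 6.15, 5.65 and 6.28. Every WT library was above every library of the other lines. At day 0 Cd24a was 4.81-fold lower in MIGA2-KO than in WT (log2 fold change -2.26 ± 0.13, adjusted p = 8.07e-08, edgeR), a larger change than that of 98.3% of all tested genes. It was the single call of the panel at day 0 that held in every alternative run, with values from -2.28 to -2.24 when 1 library was left out. At day 6 it was lower in MIGA2-KO (log2 fold change -0.93 ± 0.12, adjusted p = 2.14e-05) and in MIGA2-GFP (-1.47 ± 0.13, adjusted p = 4.52e-06) than in WT, and lower in MIGA2-GFP than in MIGA2-KO (-0.54 ± 0.13, adjusted p = 0.00314). Over time it rose 2.44-fold in MIGA2-KO (1.29 ± 0.13, adjusted p = 1.95e-06). In WT the log2 fold change was -0.05, with a 95% interval of -0.30 to 0.20, and the lines differed in their change by 1.34 ± 0.18 (adjusted p = 8.54e-05).

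Cd34 and Dpp4 were at or near no count. CD34 marks progenitors of adipose stroma as well as blood stem cells and endothelium. Its counts were 26, 33 and 32 in WT day 0, 7, 12 and 6 in WT day 6, 11, 3 and 5 in MIGA2-KO day 0, 12, 20 and 20 in MIGA2-KO day 6, and 5, 8 and 9 in MIGA2-GFP. As levels these were 1.23, 1.12 and 1.33 CPM, then 0.633, 1.17 and 0.582, then 0.883, 0.229 and 0.405, then 1.04, 1.65 and 1.74, and 0.427, 0.611 and 0.857 CPM. MIGA2-KO day 6 lay above MIGA2-KO day 0 and MIGA2-GFP, while WT day 0 and WT day 6 overlapped. Cd34 rose in MIGA2-KO over time (log2 fold change 1.54 ± 0.43, adjusted p = 0.00932, edgeR), and the call ended without MIGA2-KO day 0 replicate 2 (1.19, adjusted p = 0.0509). In WT the log2 fold change was -0.62 ± 0.39 (adjusted p = 0.182), and the difference between the lines, 2.16 ± 0.58 (adjusted p = 0.0136), passed with each library left out in turn. At day 0 Cd34 was lower in MIGA2-KO than in WT (log2 fold change -1.26 ± 0.41, adjusted p = 0.029). That call was lost without MIGA2-KO day 0 replicate 2 or 3 or WT day 0 replicate 3, and the change was -1.91 without MIGA2-KO day 0 replicate 1. At day 6 it was lower in MIGA2-GFP than in MIGA2-KO (log2 fold change -1.23 ± 0.42, adjusted p = 0.0258), a call that ended without MIGA2-GFP replicate 1 or 2 or MIGA2-KO day 6 replicate 2 or 3. MIGA2-KO against WT at day 6 gave 0.89 ± 0.41 (adjusted p = 0.0743) and MIGA2-GFP against WT -0.34 ± 0.47 (adjusted p = 0.597).

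Markers of blood and endothelial cells, which also carry Cd34, were low, but their sums were mostly above the level of Cd34 itself. The sum of 7 blood cell markers was 2.74 to 3.77 CPM in WT day 0, 1.07 to 2.63 in WT day 6, 1.28 to 2.52 in MIGA2-KO day 0, 1.65 to 4.26 in MIGA2-KO day 6 and 4.57 to 5.42 in MIGA2-GFP. Between 2 and 6 of the 7 had counts in a group, and Ptprc was at 0 in all 5 groups. The sum of 6 endothelial markers was 2.32 to 2.78 CPM in WT day 0, 0.679 to 1.36 in WT day 6, 2.09 to 2.35 in MIGA2-KO day 0, 0.523 to 0.696 in MIGA2-KO day 6 and 1.33 to 1.76 in MIGA2-GFP. Of these 4 or 5 had counts in a group, and Tie1 was at 0 in all 5 groups. The part of such cells in the Cd34 values was not tested. Other cell type markers moved with the day: the sum of 4 epithelial markers was 0.0414 to 0.373 CPM in WT day 0, 6.06 to 9.94 in WT day 6 and 3.74 to 4.27 in MIGA2-GFP, with Epcam and Cdh1 at 0 in all 5 groups. In MIGA2-KO it was 0.0803 to 0.153 CPM at day 0 and 0.697 to 1.65 at day 6. The sum of 4 mesothelial markers was 4.56 to 6.18 CPM in WT day 0 and 54.0 to 62.3 in WT day 6, 8.03 to 10.4 in MIGA2-KO day 0 and at most 14.95 in MIGA2-KO day 6, and 25.9 to 29.4 in MIGA2-GFP. Their part in the results on the panel was not tested. Dpp4, the marker of early interstitial progenitors, had 0 counts of 210327989 over the 15 libraries, which allows a level of up to 0.0143 CPM over all libraries and of up to 0.115 to 0.279 CPM in a single library (3 counts, counting error only). A count of 0 in all libraries was common: 7825 of the 25700 genes had none.

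The factors of the panel went separate ways. Prrx1, a homeobox gene of the mesenchymal lineage from which limb fat and bone cells descend, followed Pdgfra and Pdgfrb. It stood at 328, 463 and 527 CPM in WT day 0, 126, 98.8 and 94.9 in WT day 6, 424, 430.4 and 428 in MIGA2-KO day 0, 364, 352 and 358 in MIGA2-KO day 6, and 192, 208 and 205 in MIGA2-GFP. WT day 6 lay lowest, MIGA2-GFP above it, and MIGA2-KO day 6 reached into the range of WT day 0. The fall in WT was 4.12-fold (log2 fold change -2.04 ± 0.15, adjusted p = 2.1e-08, edgeR). In MIGA2-KO the change over time was -0.25 ± 0.15 (adjusted p = 0.173), with a 95% interval of -0.56 to 0.06. The MIGA2-KO days did not overlap, and this change passed with only these groups fitted (adjusted p = 0.00311) and without the 3 libraries that stood apart (-0.24, adjusted p = 0.00213). Prrx1 thus differed between the lines in its change over time, by 1.79 ± 0.21 (adjusted p = 2.65e-05). At day 6 it was 3.36-fold higher in MIGA2-KO than in WT (log2 fold change 1.75 ± 0.15, adjusted p = 4.2e-07) and 1.89-fold higher in MIGA2-GFP than in WT (0.92 ± 0.15, adjusted p = 0.000423). MIGA2-GFP was 1.78-fold lower than MIGA2-KO (-0.83 ± 0.15, adjusted p = 0.000373). At day 0 the difference was -0.04, with a 95% interval of -0.35 to 0.27, and -0.21 (adjusted p = 0.00625) without the 3 libraries.

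Zfp423, which raises PPARG and marks committed preadipocytes, was lowest in MIGA2-KO at day 6. Its levels were 7.55, 13.1 and 9.78 CPM in WT day 0, 13.7, 12.8 and 13.0 in WT day 6, 9.87, 8.49 and 8.92 in MIGA2-KO day 0, 6.26, 4.45 and 5.66 in MIGA2-KO day 6, and 13.0, 12.4 and 12.9 in MIGA2-GFP. MIGA2-KO day 6 was below every other library, and WT day 6 and MIGA2-GFP overlapped. It fell 1.67-fold in MIGA2-KO over time (log2 fold change -0.74 ± 0.19, adjusted p = 0.00619, edgeR) and its change was 0.37 ± 0.18 in WT (adjusted p = 0.0826), which passed at 0.59 without WT day 0 replicate 2 (adjusted p = 0.00654). The difference between the lines was -1.10 ± 0.26 (adjusted p = 0.00634), and -0.73 (adjusted p = 0.0544) when libraries were scaled by their totals alone. At day 6 Zfp423 was 2.41-fold lower in MIGA2-KO than in WT (log2 fold change -1.27 ± 0.19, adjusted p = 6.93e-05) and 2.33-fold higher in MIGA2-GFP than in MIGA2-KO (1.22 ± 0.19, adjusted p = 0.000142). MIGA2-GFP against WT gave -0.05, with a 95% interval of -0.43 to 0.34. At day 0 the log2 fold change between the lines was -0.16, with an interval of -0.55 to 0.22, and without the 3 libraries that stood apart it passed, at -0.34 (adjusted p = 0.048).

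Ebf2, a factor that recruits PPARG to brown fat genes, was highest in MIGA2-KO at day 6. Ebf2 stood at 3.21, 5.52 and 5.59 CPM in WT day 0, 6.78, 2.83 and 2.91 in WT day 6, 6.26, 5.96 and 5.27 in MIGA2-KO day 0, 9.30, 14.3 and 13.5 in MIGA2-KO day 6, and 4.53, 5.95 and 6.47 in MIGA2-GFP. All 3 of MIGA2-KO day 6 lay above every other library, and WT day 6 replicate 1 lay apart from the rest of its group. Ebf2 rose 2.12-fold in MIGA2-KO over time (log2 fold change 1.08 ± 0.30, adjusted p = 0.00868, edgeR). It was 2.94-fold higher in MIGA2-KO than in WT at day 6 (1.56 ± 0.31, adjusted p = 0.000684) and lower in MIGA2-GFP than in MIGA2-KO (-1.13 ± 0.30, adjusted p = 0.0067). In WT the change over time was -0.19 ± 0.31 (adjusted p = 0.608), and it was -0.94 (adjusted p = 0.000394) without the 3 libraries that stood apart and -0.74 (adjusted p = 0.0351) without WT day 6 replicate 1 alone. The lines differed in their change by 1.27 ± 0.43 (adjusted p = 0.0414). This call held without replicate 1 of WT day 0, of WT day 6 or labelled MIGA2-KO day 6 and was lost without any 1 of the other 9 libraries, at adjusted p between 0.0656 and 0.102, and the difference was 2.21 (adjusted p = 4.37e-07) without the 3 libraries. MIGA2-GFP against WT gave 0.43 ± 0.33 (adjusted p = 0.32), or 0.95 (adjusted p = 0.0191) without WT day 6 replicate 1. At day 0 the log2 fold change between the lines was 0.28, with a 95% interval of -0.36 to 0.92.

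Other transcription factors of adipose progenitors and inhibitors of adipogenesis were counted beside these. Of 24 tested, 15 were lower and 2 higher in WT over time, with a median log2 fold change of -0.94, while 33.1% of all tested genes were lower and 31.7% higher. In MIGA2-KO 10 were lower and 5 higher, with a median of -0.06, beside 21.0% and 23.3% of all genes. At day 6, 13 were higher and 1 lower in MIGA2-KO than in WT, with a median of 0.45 against -0.01 over all genes, of which 29.2% were higher and 31.5% lower. Zeb1, a factor of the mesenchymal state, stood at 62.5 ± 19.5 CPM in WT and 115 ± 12.1 CPM in MIGA2-KO at day 6 (log2 fold change 0.88 ± 0.23, adjusted p = 0.00413, edgeR). Tcf7l1 rose in both lines, from 131 ± 12.6 to 226 ± 10.7 CPM in WT (0.79 ± 0.14, adjusted p = 0.000153) and from 131 ± 7.34 to 222 ± 50.9 CPM in MIGA2-KO (0.75 ± 0.14, adjusted p = 0.000462).

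Most genes listed for the committed preadipocyte rose over time in both lines, and several of them are also genes of the fat cell. Fabp4 is also among the adipocyte markers summed above. Of 11 tested, 9 were higher and 2 lower over time in WT and in MIGA2-KO alike, with medians of 3.61 and 3.23. The 2 that fell were Dlk1 (log2 fold change -1.75 in WT and -2.29 in MIGA2-KO) and Vcam1 (-2.99 and -1.42). Of all tested genes 31.7% were higher and 33.1% lower in WT, and 23.3% and 21.0% in MIGA2-KO. At day 6, 6 were lower and 3 higher in MIGA2-KO than in WT, beside 31.5% and 29.2% of all genes. Lpl, for lipoprotein lipase, went from 690.5 ± 70.5 to 12639 ± 356 CPM in WT (log2 fold change 4.19 ± 0.17, adjusted p = 3.38e-11, edgeR) and from 1127 ± 16.5 to 4329 ± 1194 CPM in MIGA2-KO (1.94 ± 0.16, adjusted p = 1.18e-07). Fabp4 stood at 15729 ± 2714 CPM in WT, 3373 ± 966 CPM in MIGA2-KO and 8746 ± 444 CPM in MIGA2-GFP at day 6. For Cd36, a fatty acid transporter gene, the level was 2469 ± 309 CPM in WT and 2781 ± 53.9 CPM in MIGA2-GFP. In MIGA2-KO it was 263, 266 and 1108 CPM, the last in the library labelled MIGA2-KO day 6 replicate 1, which also had the highest Lpl and Fabp4 of its group.

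**Figure D3:**
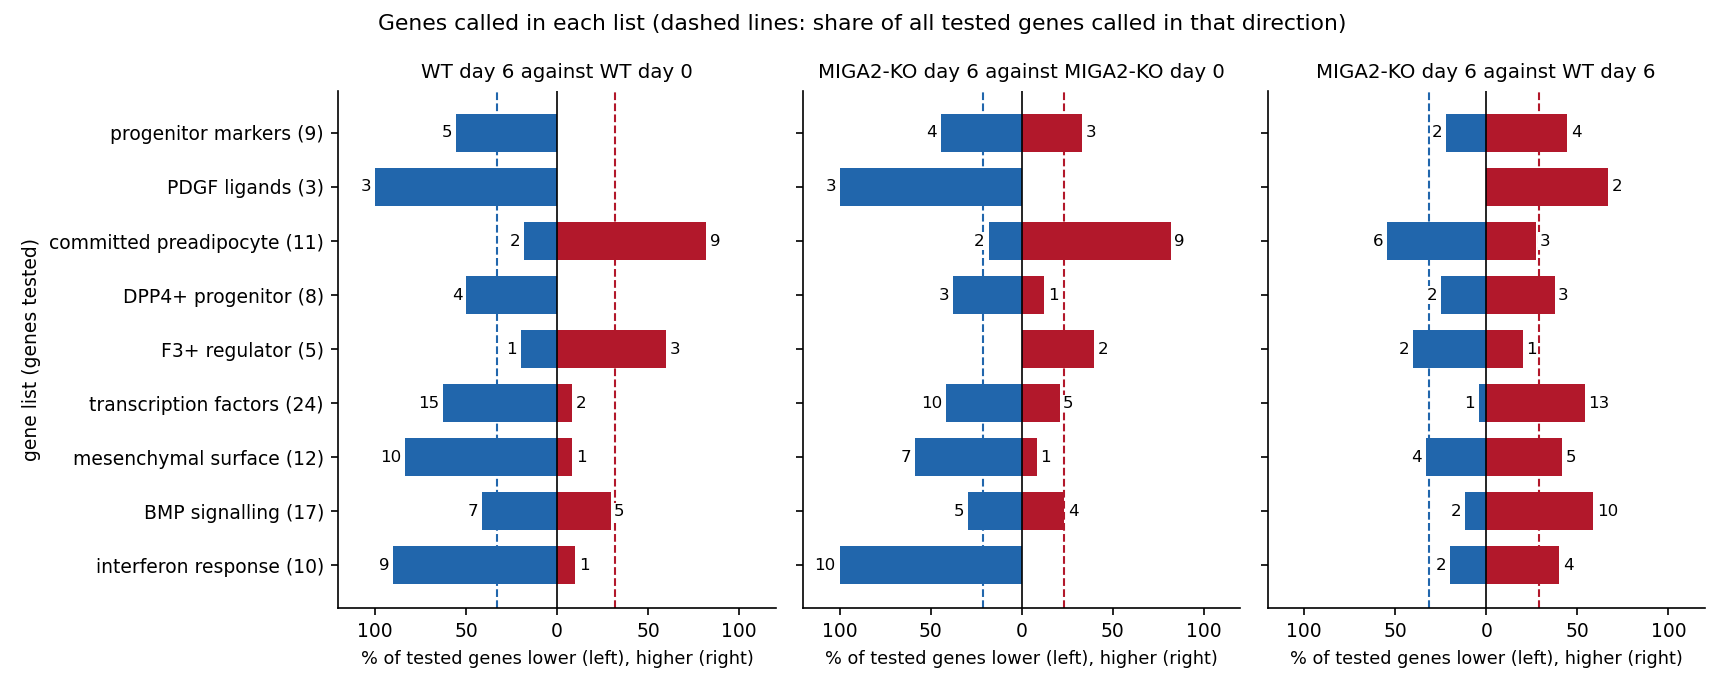
Share of the tested genes of each list that were lower (left, blue) or higher (right, red) in 3 comparisons, with the number of genes at each bar and, as dashed lines, the share of all tested genes called in that direction. Of the committed preadipocyte genes 9 of 11 were higher over time in either line, while 5 of 9 progenitor markers were lower in WT.

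Profiles over the 15 libraries grouped the panel in part. The distance used was the root mean square difference between log2(CPM + 0.5) profiles, each centred on its own mean, and it was lowest for Pdgfra and Prrx1, at 0.367. Pdgfrb lay at 0.538 from Prrx1 and at 0.722 from Pdgfra. Cd24a was farthest from the receptors, at 1.63 from Pdgfrb and 1.22 from Pdgfra. The SD of log2 level over the libraries was highest for Ly6a, at 1.27, followed by Pdgfrb at 1.23 and Thy1 at 1.05, and was 0.475 for Cd34 and 0.483 for Zfp423. Outside the panel, the gene nearest to Pdgfra was Irs1, at 0.0945, and the next was Susd6, at 0.106. Nearest to Pdgfrb were Csgalnact1 (0.165) and Plekho2 (0.171), and nearest to Prrx1 were Shox2 (0.135) and Wls (0.148). For Thy1 they were Gata2 (0.257) and Ak1 (0.273), and for Ly6a the second was Tspan6 (0.331). For Zfp423 they were Abcc5 (0.182) and Ube2j1 (0.211), for Ebf2 Svil (0.230) and Phip (0.232), for Cd34 Lysmd2 (0.266) and Anks6 (0.272), and for Cd24a Cdca3 (0.282) and Tubb2a (0.323). These distances describe these libraries and include any depth or library effect they share.

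The spread within groups differed by gene. In WT day 0 replicate 1, 4 of the genes with long exons were low against the mean of the other replicates, by log2 differences of -0.76 for Pdgfra (10.0 kb of exon), -0.59 for Prrx1 (11.1 kb), -0.79 for Ebf2 (6.93 kb) and -0.60 for Zfp423 (5.61 kb). The short genes Ly6a (1.21 kb) and Thy1 (3.00 kb) were high there, by 0.60 and 0.42. Pdgfrb (5.48 kb) differed by -0.22 and Cd34 (7.29 kb) by 0.01. In WT day 6 replicate 1, Ebf2, Pdgfra and Prrx1 were instead high, by 1.24, 0.85 and 0.38, while Ly6a, Thy1 and Cd34 were low, at -0.13, -0.24 and -0.47. Cd24a, at 2.58 kb, differed by -0.06 and 0.26. Pdgfrb and Zfp423 differed by 0.15 and 0.08 in WT day 6 replicate 1. In the library labelled MIGA2-KO day 6 replicate 1, Cd34 at -0.70, Ebf2 at -0.58, Thy1 at -0.39, Pdgfra at -0.35 and Ly6a at -0.35 lay on the same side. Cd24a was at -0.17 and Pdgfrb at -0.10 there, while Prrx1 was at 0.04 and Zfp423 at 0.31. The share of mitochondrially encoded counts was 2.07% in WT day 0 replicate 1, against 2.95% and 3.44% in the other replicates, and 12.5% in WT day 6 replicate 1, against 8.07% and 7.06%. The part of exon length, RNA quality or library preparation in these values was not tested. The 3 libraries of MIGA2-KO day 0 differed least, with Ly6a within 363 to 366 CPM. Between pairs of them the counts gave a chi-square per degree of freedom of 1.70 to 2.79, where counting error alone gives about 1, against 20.6 to 130.0 in WT day 0.

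**Figure D4:**
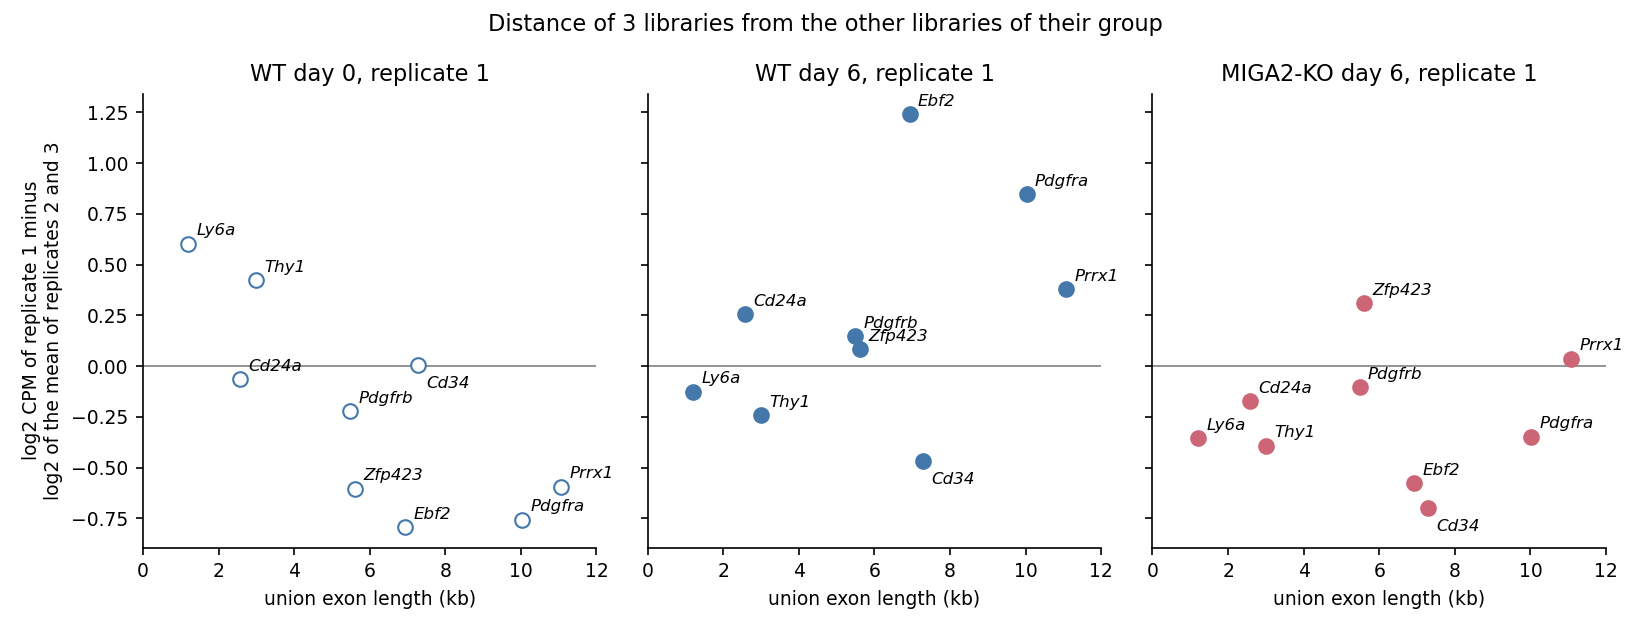
Log2 CPM of replicate 1 minus the log2 of the mean of replicates 2 and 3 (vertical axis) against union exon length in kb (horizontal axis) for 9 genes in 3 groups. In WT day 0 Pdgfra, Prrx1, Ebf2 and Zfp423 lie between -0.79 and -0.59 and Ly6a and Thy1 above 0. In WT day 6 Ebf2, Pdgfra, Prrx1, Cd24a, Pdgfrb and Zfp423 lie above 0, and Ly6a, Thy1 and Cd34 lie below it.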

How the data were processed

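RNA of 15 3T3-L1 samples was sequenced with a stranded TruSeq kit after RNeasy extraction, per the labels' protocols. The authors deposited raw counts per Ensembl gene; the submitters' processing notes name bcl2fastq 2.19, Trimmomatic, STAR 2.5.4b, featureCounts, edgeR and GRCm38.p5. The annotation release and the handling of reads with several matches are unstated there.

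Groups came from the labels. Counts were tested in R 4.3.3 with edgeR 4.0.16 (limma 3.58.1): TMM scaling, filterByExpr (minimum count 10, minimum total 15), all 15 libraries with 1 term per group, quasi-likelihood F test, two-sided, and Benjamini-Hochberg adjustment over the 12279 genes tested of 25700, at 0.05. Adjusted p-values are from this fit unless the text names another setting, left-out libraries or DESeq2 (1.42.0). The SE was taken from the log2 fold change and F. The common biological coefficient of variation was 16.0%. Lengths are union exons of GENCODE vM21. The script was tested on simulated data. Alternatives were other scalings, no filter, a robust fit, only the groups compared, a replicate block, DESeq2, and libraries left out.

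The genes and the gene lists were chosen with earlier results of these data known. Named genes are the 10 markers, the PDGF ligands, genes among the 3 most abundant of each other list and the 2 nearest profiles of each marker. Dlk1 and Vcam1 are named in addition, as the committed preadipocyte genes that fell. Some genes that this rule allows are not reported here. Lists are described by counts and medians only.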

Additional observations from a re-analysis of the deposited data

Results flagged for a closer look

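For 6 genes the change from day 0 to day 6 differed between MIGA2-KO and WT by a test of the interaction in edgeR, where 27.2% of all tested genes did. Pdgfrb, a PDGF receptor gene, differed by 1.48 on the log2 scale, with changes of -1.36 in MIGA2-KO and -2.84 in WT. Prrx1 differed by 1.79, with changes of -0.25 and -2.04. For Cd24a the difference was 1.34, from 1.29 in MIGA2-KO and -0.05 in WT. Cd34 differed by 2.16, from changes of 1.54 and -0.62 at 19 to 91 counts per group. For Ebf2 the difference was 1.27, from 1.08 and -0.19, and the call depended on single libraries. Zfp423 alone among the 6 differed in the negative direction, by -1.10, with changes of -0.74 in MIGA2-KO and 0.37 in WT.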

How the results depend on the processing

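Of 63 tests of single markers 42 passed, where 27.2% to 64.8% of all tested genes were called in a comparison. Direction and call, passed or not, were kept in 36 tests under the 8 other settings and under every library left out. Among the markers 4 were called for MIGA2-KO against WT at day 0. This count was 7 without the 3 libraries that stood apart, 1 with only the groups compared, 2 with the replicate block and 1 to 3 with 1 library left out. Calls over all tested genes in this comparison moved too. They went from 4159 to 6154, 3117 and 3505 in the first 3 of these settings, and to between 2809 and 4707 with 1 library left out. The cause was not tested. Other counts of called markers stayed within 1.5 times. With the replicate block Cd34 and Thy1 at day 0 and the Ebf2 difference over time also lost their calls, and the block changed no other call. Numbers did not pair the libraries: 5 of 30 same-number pairs had deviations correlated over 0.1, with r from -0.785 to 0.165, and 3 of 15 libraries correlated best with their own number.

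Direction turned only for values that had not passed. Ly6a in MIGA2-KO against WT at day 6 became 0.018 without the 3 libraries and 0.18 with library totals only. With library totals only, Thy1 in that comparison became 0.049, Zfp423 in MIGA2-GFP against WT 0.13, and Zfp423 in WT over time -0.029. With 1 library left out, Cd24a in WT over time ran from -0.14 to 0.012 and Ebf2 from -0.74 to 0.019. At day 6, Ly6a in MIGA2-KO against WT ran from -0.13 to 0.066. Against WT, Cd34 in MIGA2-GFP ran from -0.61 to 0.024 and Pdgfra from -0.056 to 0.44. At day 0, Prrx1 in MIGA2-KO against WT ran from -0.21 to 0.11 and Zfp423 from -0.34 to 0.072.

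Over all genes, leaving out the 3 libraries raised the calls for the difference over time from 3346 to 7655 and for MIGA2-GFP against WT from 4338 to 7625. Library totals moved the median of all genes by -0.39 in WT over time, -0.12 for MIGA2-KO against WT at day 0, 0.25 at day 6, 0.18 for MIGA2-GFP against WT and 0.37 for the difference over time. The share of calls that were higher went from 48.9% to 29.6% in the first, 47.6% to 28.1% in the second, 48.1% to 63.6% in the third, 46.6% to 69.6% in the fourth and 50.1% to 82.6% in the last. Depth limits Cd34, with at most 33 counts in a library, and Dpp4.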

Other observations

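Genes of other stromal programmes were also measured. Of 8 tested genes of DPP4-positive interstitial progenitors, 4 were lower and 0 higher in WT over time, where 33.1% of all tested genes were lower and 31.7% higher, while Dpp4 itself had no count. In MIGA2-KO 3 were lower and 1 higher over time, beside 21.0% and 23.3% of all genes. Anxa3 fell from 108 ± 15.8 to 14.0 ± 1.30 CPM in WT (log2 fold change -2.95 ± 0.12, adjusted p = 4.76e-11, edgeR). It also fell in MIGA2-KO (-2.30 ± 0.12, adjusted p = 1.43e-09). Ugdh fell in WT (-0.90 ± 0.11, adjusted p = 4.64e-06) and gave 0.03 ± 0.11 in MIGA2-KO (adjusted p = 0.857). The change differed between the lines by 0.93 ± 0.15 (adjusted p = 0.000539). F3, the coagulation factor gene that marks stromal cells restraining adipogenesis, stood at 364 ± 16.6 CPM in MIGA2-KO day 6 and 149.7 ± 20.4 CPM in WT day 6. It was higher in the former by 1.28 ± 0.10 on the log2 scale (adjusted p = 1.91e-07). Of 5 tested genes of these F3-positive stromal cells, F3 among them, 1 was higher and 2 were lower in that comparison. Their median log2 fold change was -0.25, and of all tested genes 29.2% were higher and 31.5% lower there.

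Of 12 other mesenchymal surface markers 10 were lower and 1 higher in WT over time, and 7 were lower and 1 higher in MIGA2-KO, with 33.1% and 21.0% of all genes lower. Of 17 genes of BMP signalling, which acts upstream of Zfp423 in preadipocytes, 10 were higher and 2 lower in MIGA2-KO than in WT at day 6, where 29.2% of all genes were higher and 31.5% lower. The receptor gene Bmpr2 was higher there (1.25 ± 0.22 on the log2 scale, adjusted p = 0.000261), with 125 ± 5.58 CPM in MIGA2-KO and 52.4 ± 13.2 CPM in WT. It was also higher in MIGA2-GFP, at 120.6 ± 4.25 CPM, than in WT (1.20 ± 0.22, adjusted p = 0.00112). Grem1, for a secreted BMP antagonist, fell from 321 ± 99.3 to 8.92 ± 2.30 CPM in WT (-5.17 ± 0.24, adjusted p = 1.45e-10). It also fell in MIGA2-KO (-4.34 ± 0.23, adjusted p = 1.37e-09). At day 6 Grem1 was higher in MIGA2-KO than in WT (1.28 ± 0.22, adjusted p = 0.000229). The genes counted as higher there thus include an antagonist of the pathway.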
